A study of Mus musculus with 6 samples.

Results

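Penk, Calca and Ramp1 are 3 of the 14597 genes counted in 12818 T cells from mouse melanomas. Penk encodes proenkephalin, the precursor of the enkephalin opioid peptides. Calca encodes calcitonin and the neuropeptide CGRP, and Ramp1 encodes a subunit of the CGRP receptor. The genes were chosen by name with earlier results of the same table in view. In these, Penk and Calca stood out in CCR8+ CD4+ Tconv cells. The choice also used co-detection with Il13. Levels against Ccr8, Il13 and gates that include Il13 are therefore given as a description. All 3 had a row in the table and all 3 were detected. No minimum level was applied to them.

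The cells were TCRβ+ T cells sorted from B16-F10 tumors, a transplanted mouse melanoma grown under the skin. All hosts were Foxp3-EGFP-DTR mice, in which the Foxp3 gene also drives a fluorescent protein and the diphtheria toxin receptor, so that DTx removes Foxp3+ Treg cells. By the labels, 3 samples received PBS and 3 received DTx, and the labels themselves give no age. The table joins 6 libraries whose barcodes end in the numbers 1 to 6, and no label links a number to a sample, so 0 libraries could be assigned to PBS or DTx and that comparison was not made. The libraries are called by their number and are not treated as replicates of a group.

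Opioid peptides and CGRP are best known as products of neurons. Proenkephalin is cut at pairs of basic residues by prohormone convertases, and the enkephalins that it releases act on opioid receptors. CGRP binds a receptor made of the calcitonin receptor-like protein CALCRL together with RAMP1, and the receptor raises cyclic AMP in the cell. RAMP3 pairs with the same CALCRL to bind adrenomedullin. T cells are known to transcribe Penk, and sensory nerves that release CGRP reach skin and many tumors.

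The Penk message is shown through its repeated peptide. In GENCODE annotation of GRCm38, Penk (ENSMUSG00000045573.9) lies on the minus strand at chr4:4133531-4138819. The coding sequence of its longer transcript holds 268 codons and 7 copies of the enkephalin pentapeptide, 6 of Met-enkephalin and 1 of Leu-enkephalin, and all 7 lie in exon 2. Capitals mark the 15 bases that encode the pentapeptide and lower case the 6 bases on each side, where the cutting sites lie. Copies 1, 2, 3, 5 and 6, which makes 5 of the 7, had a pair of lysine or arginine codons on both sides, and copies 4 and 7 had such a pair only before the peptide.
Met-enkephalin copy 1, chr4:4134328-4134354: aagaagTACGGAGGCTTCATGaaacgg
Met-enkephalin copy 2, chr4:4134307-4134333: aaacggTACGGAGGCTTCATGaagaag
Met-enkephalin copy 3, chr4:4134220-4134246: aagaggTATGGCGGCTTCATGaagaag
Met-enkephalin copy 4, chr4:4134067-4134093: aagaggTATGGGGGCTTCATGagaagc
Met-enkephalin copy 5, chr4:4133995-4134021: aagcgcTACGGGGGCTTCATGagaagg
Leu-enkephalin copy 6, chr4:4133935-4133961: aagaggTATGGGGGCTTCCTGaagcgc
Met-enkephalin copy 7, chr4:4133842-4133868: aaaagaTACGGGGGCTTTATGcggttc

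Calca (ENSMUSG00000030669.13) lies on the minus strand at chr7:114631478-114636357. Calcitonin and CGRP share the first exons of the gene and differ in the exons that follow. The exon used for calcitonin lies at chr7:114633293-114633785 and the first exon specific to CGRP at chr7:114632416-114632599. All 6 annotated transcripts with at least 3 exons hold exon 2, at chr7:114635127-114635221. The libraries were made from the 5′ ends of transcripts, which these 6 share, so a Calca count does not tell which peptide was encoded. Ramp1 (ENSMUSG00000034353.14) lies on the plus strand at chr1:91179822-91225196.

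The 250 bases before the start of Calca are shown as a description. Gata3 and Crem, genes for factors that bind elements named below, had more UMIs in Calca+ cells than expected (given with the cyclic AMP genes and the type 2 genes). They also had more in Ramp1+ cells (1.80-fold and 1.54-fold). Fosl2, for a subunit of AP-1, had more as well (2.94-fold in Calca+ and 1.75-fold in Ramp1+ cells). The AP-1 motif was not found in the 250 bases before Calca or Ramp1. Creb1 and Atf1, on the same list of cyclic AMP genes as Crem, had intervals that spanned 1 in Calca+ cells (0.532 to 1.71 and 0.831 to 1.63). No link between a factor and a motif was tested. The sequence is from RefSeq on GRCm38.p6, minus strand, chr7:114636358-114636607, and capitals mark the match to AGATAA, the GATA motif read here on the opposite strand, and the match to TGACG, the core of the cyclic AMP response element.
Calca promoter: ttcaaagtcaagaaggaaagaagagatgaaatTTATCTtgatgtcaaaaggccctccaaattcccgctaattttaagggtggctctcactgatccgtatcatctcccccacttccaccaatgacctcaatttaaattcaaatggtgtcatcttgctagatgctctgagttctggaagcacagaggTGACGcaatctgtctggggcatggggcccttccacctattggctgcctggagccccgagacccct
On both strands, AGATAA was found in 9.99% and TGACG in 17.8% of the same window of 32851 RefSeq promoters. The full element TGACGTCA, which contains TGACG, was found in 1.55% and the AP-1 motif TGANTCA in 6.75%, and neither was found in the Calca window. The matching 250 bases of Ramp1, chr1:91179572-91179821, held none of these 4 motifs. The NFAT motif GGAAA and the E-box CANNTG, also searched, were in both windows and in 55.6% and 66.2% of promoters. A match describes letters and not a bound site.

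A count is a unique molecular identifier (UMI), a tag that stands for 1 captured RNA molecule. The libraries held 1768 to 2640 cells with median depths of 610 to 2499.5 UMIs per cell, and libraries 4 and 5 were the deepest. Cells were gated by UMIs, with CD4+ Tconv cells defined by Cd4 and no Cd8a, Cd8b1 or Foxp3 UMI (1205 cells), CD8+ T cells by Cd8a or Cd8b1 and neither Cd4 nor Foxp3 (4497 cells) and Foxp3+ cells by Foxp3 and no Cd8 (97 cells). In 6838 cells no gating gene had a UMI, so the gates miss many cells of each lineage. Foxp3+ cells numbered 49, 30, 17, 0, 0 and 1 in libraries 1 to 6. Of all cells, 93.3% had a UMI of Cd3e, Cd3d, Cd3g or Trac, markers of the sorted T cells. Shares carry exact 95% Clopper-Pearson intervals and UMI levels exact 95% Poisson intervals, and both cover counting error only.

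Penk was carried by few cells, some of which held very many copies. It was found in 95 of 12818 cells (0.741%, 0.600 to 0.905) with 717 UMIs. In 36 of these cells there was a single UMI, while 33 had at least 5 and 17 had at least 10. The 3 highest cells held 75, 48 and 46 UMIs, and the 10 highest held 54.0% of all Penk UMIs. Calca was found in as many cells but with fewer copies, 226 UMIs in 101 cells (0.788%, 0.642 to 0.957). Of its cells 57 had a single UMI, 9 had at least 5 and the highest had 21. Ramp1 was the most widely detected, with 1037 UMIs in 693 cells (5.41%, 5.02 to 5.81), but 514 of them had a single UMI and the highest had 12. Its 10 highest cells held 7.14% of its UMIs.

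**Figure D1:**
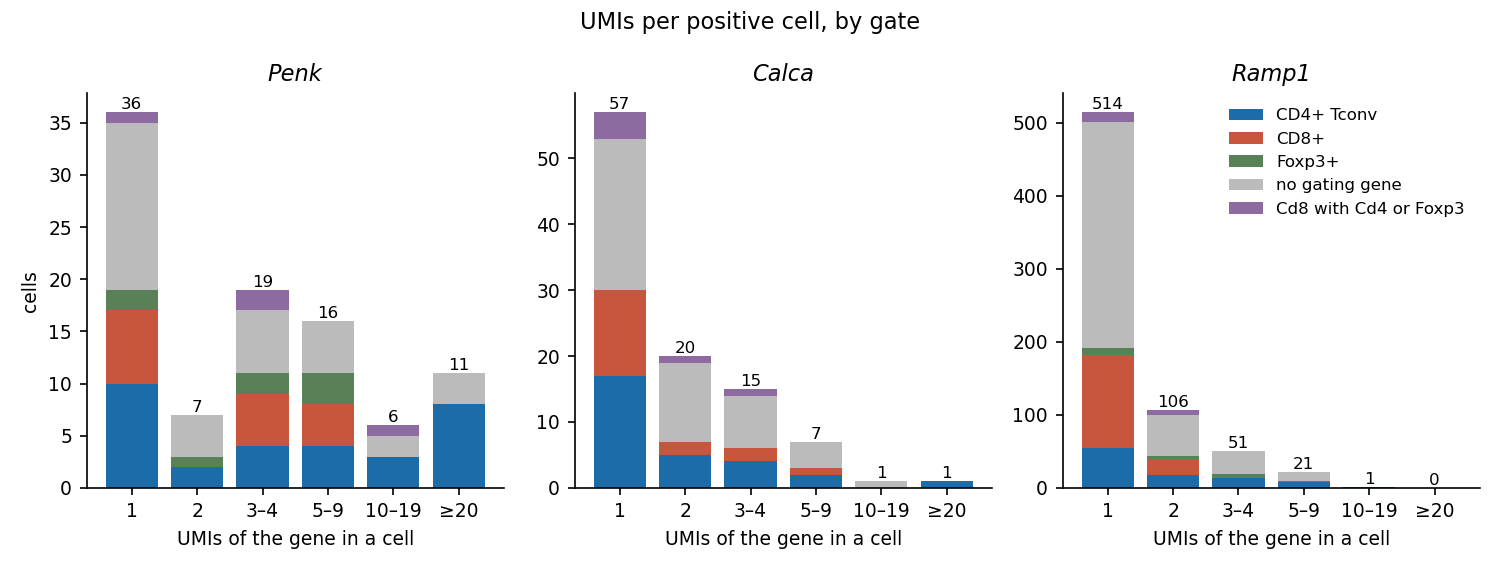
Number of cells (vertical axis) by the UMIs of the gene that a cell held (horizontal axis), with colors for the UMI gates (grey for cells with no gating gene). Penk has a tail of 11 cells with at least 20 UMIs, 8 of them CD4+ Tconv cells and none CD8+, while 514 of the 693 Ramp1+ cells hold 1 UMI.

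Cells with a UMI were deeper than cells without. The median depth was 4024 UMIs in Penk+ against 1246 in other cells, 2913 against 1246 for Calca and 1492 against 1241 for Ramp1. Comparisons between cells are therefore given within a library, or within a library and quartile of depth.

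Markers of other cell types were rare in the positive cells. A T cell marker UMI was found in 94 of 95 Penk+, 99 of 101 Calca+ and 659 of 693 Ramp1+ cells. The neural and glial markers Tubb3 and S100b were at 0 in all 3 sets, and so was Cpa3, a mast cell and basophil marker. Tubb3, S100b and Cpa3 had only 22, 2 and 2 UMIs over all cells, so these zeros cannot show that such cells were absent. Of 6 mast cell and basophil markers looked for, only Cpa3 had a row. Pigment cell genes (Tyrp1, Dct, Mlana and Pmel) reached 0, 0 and 1 UMIs in Penk+, Calca+ and Ramp1+ cells. Summed myeloid markers (Csf1r, Itgam and Cd68) reached 2, 1 and 5 UMIs B cell markers (Cd79a and Cd79b) 1, 2 and 6, and the fibroblast and endothelial markers 9, 9 and 45, the last at 0.224, 0.287 and 0.301 UMIs per 10000 against 0.280 in cells with none of the 3 genes. Innate lymphoid genes that T cells also express (Il1rl1, Rora, Klrg1 and Nmur1) ran at 4.76, 6.03 and 4.38 UMIs per 10000 in Penk+, Calca+ and Ramp1+ cells against 2.26 in the remaining cells. By library they ran from 0 to 12.8 in Penk+, 2.75 to 11.8 in Calca+ and 0.562 to 7.56 in Ramp1+ cells, against 0.354 to 2.83. Their part in the results was not tested.

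Over all libraries, the 3 genes were at higher levels in CD4+ Tconv than in CD8+ T cells. The choice of the genes had used these cells, so the values are a description. Penk UMIs per 10000 UMIs were 1.56 (1.41 to 1.72) in CD4+ Tconv and 0.0516 (0.0384 to 0.0679) in CD8+ T cells. Calca was at 0.291 (0.229 to 0.364) and 0.0314 (0.0213 to 0.0445), and Ramp1 at 0.781 (0.678 to 0.896) and 0.181 (0.156 to 0.210). The share of CD4+ Tconv cells with a UMI was 2.57% for Penk (31 cells, 1.75 to 3.63), 2.41% for Calca (29 cells, 1.62 to 3.44) and 7.97% for Ramp1 (96 cells, 6.50 to 9.64).

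Within libraries, Penk was higher in CD4+ Tconv than in CD8+ T cells in 6 of 6. Its CD4+ Tconv level, in libraries 1 to 6, was 0.296, 2.70, 0.0755, 1.38, 2.26 and 1.23 UMIs per 10000. The CD8+ level was 0.00944, 0.00763, 0.0568, 0.00383, 0.0644 and 0.154 in the same order. The library 2 value came from a single CD4+ Tconv cell with 48 UMIs, and library 3 had 1 UMI in 1 cell. The ranges over libraries overlapped, since the CD8+ value of library 6 was above the CD4+ value of library 3. Matched within library, 407 Penk UMIs stood against 11.3 expected at the CD8+ level, a ratio of 36.0 (32.6 to 39.7). Since UMIs of a cell are not independent, the same ratio was taken over cells with a UMI, where it was 7.53 for 31 cells. It was 25.1 without library 4 and 55.5 without library 6.

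Calca in CD4+ Tconv cells was at 0 in libraries 1 and 2 (0 of 145 and 0 of 151 cells), and at 0.151, 0.512, 0.261 and 0.133 UMIs per 10000 in libraries 3 to 6. In CD8+ T cells it was at 0 in library 1 (0 of 622 cells) and 0.0153, 0.114, 0.0115, 0.0442 and 0.0479 in libraries 2 to 6. The CD4+ level was above the CD8+ level in 4 libraries and below it in library 2. The matched ratio was 9.64 (7.60 to 12.1), 5.78 over cells and 3.98 without library 4. Over all cells, Calca+ cells numbered 1, 1, 10, 33, 35 and 21 in libraries 1 to 6, so that libraries 1 and 2 held 2 of the 101.

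Ramp1 was higher in CD4+ Tconv cells in 6 of 6 libraries, at 1.06, 0.898, 1.28, 1.10, 0.372 and 0.366 UMIs per 10000 in libraries 1 to 6 against 0.378, 0.618, 0.454, 0.0344, 0.0603 and 0.0532 in CD8+ T cells. The share of cells with a UMI was in the other order in library 2 (7.28% of CD4+ Tconv and 8.13% of CD8+ T cells), so no order is read from the level there. The matched ratio was 5.71 (4.95 to 6.55), 2.82 over cells and 3.05 without library 4. Ramp1+ cells numbered 174, 208, 127, 82, 59 and 43 in libraries 1 to 6, or 8.19%, 7.88%, 5.5996%, 4.64%, 2.97% and 2.12% of cells, so that libraries 1 and 2, where Calca was rarest, had the highest Ramp1 shares.

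**Figure D2:**
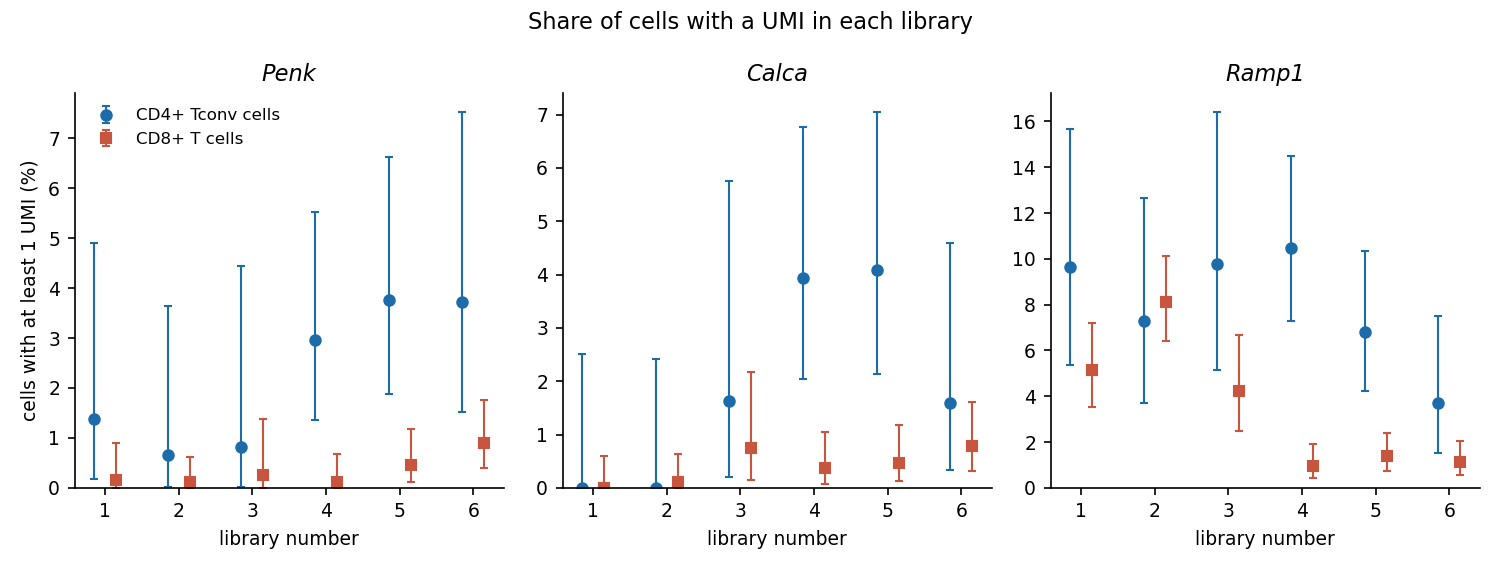
Percentage of cells with at least 1 UMI (vertical axis) in CD4+ Tconv (circles) and CD8+ T cells (squares) of each library (horizontal axis), with exact 95% binomial intervals. Penk shares of CD4+ Tconv cells lie between 0.662% and 3.75%, above the CD8+ share of the same library in all 6, while Calca is at 0 in CD4+ Tconv cells of libraries 1 and 2.

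Drawn down to 1500 UMIs a cell, which left 654 CD4+ Tconv and 2626 CD8+ T cells, the shares were 3.26% and 0.349% for Penk, 2.04% and 0.346% for Calca and 7.53% and 1.82% for Ramp1. At 500 UMIs a cell they were 1.31% and 0.107%, 0.792% and 0.104%, and 2.80% and 1.22%. The CD4+ Tconv share was the higher at both depths for each gene.

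Foxp3+ cells carried Penk and Ramp1, and no Calca was found in them. Penk had a UMI in 8 of 97 Foxp3+ cells (8.25%, 3.63 to 15.6), 3 in library 1, 2 in library 2 and 3 in library 3. Its level was 1.43 UMIs per 10000 (0.951 to 2.07), an interval that overlaps that of CD4+ Tconv cells. Of these cells 2 had a single UMI and 3 had 5 to 9, and none of the 17 cells with at least 10 was Foxp3+. Against CD4+ Tconv cells the Penk ratio was 1.56 (1.04 to 2.26) within library and 0.700 (0.465 to 1.01) within library and depth, so its direction turned with the matching. Calca had 0 UMIs in the 97 cells, a count that leaves room for 3.09% of them, and 1 UMI in the 18 cells with both Foxp3 and Cd8 UMIs. Ramp1 had a UMI in 19 of 97 Foxp3+ cells (19.6%, 12.2 to 28.9) and a level of 2.10 (1.505 to 2.84). Its ratio to CD4+ Tconv cells was 2.004 (1.44 to 2.72) within library and 1.69 (1.21 to 2.30) within library and depth. In libraries 1, 2 and 3 its Foxp3+ level was 1.495, 1.88 and 4.46, and each was above the CD4+ Tconv level of the same library. Library 3 held 17 Foxp3+ cells, and 1 of them alone held 9 Ramp1 UMIs.

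By level over all libraries, these gates ran in the order CD4+ Tconv, Foxp3+, cells with no gating gene and CD8+ T cells for Penk, where the first pair did not differ beyond their intervals and the others were at 0.253 (0.220 to 0.289) and 0.0516. For Calca the order was CD4+ Tconv, no gating gene (0.131, 0.107 to 0.158), CD8+ and Foxp3+, and the zero in Foxp3+ cells allows up to 0.153, above the CD8+ level. For Ramp1 it was Foxp3+, CD4+ Tconv, no gating gene (0.701, 0.645 to 0.760) and CD8+, where the intervals of CD4+ Tconv cells and of cells with no gating gene overlapped. These orders pool libraries, and libraries 1, 2 and 3 held 49, 30 and 17 of the 97 Foxp3+ cells. There Penk in Foxp3+ cells was at 0.748, 1.51 and 3.57 UMIs per 10000, above CD4+ Tconv cells in libraries 1 and 3 and below them in library 2, and Calca in CD4+ Tconv cells was itself at 0 in libraries 1 and 2. The 163 cells with Cd4 and Cd8 UMIs, among which doublets were not marked, held 3 Penk+, 5 Calca+ and 15 Ramp1+ cells.

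Over all libraries, Penk and Calca were rare in naive-like cells and Ramp1 was not. These were defined by at least 2 of Ccr7, Lef1 and S1pr1, which mark circulating T cells, and no Mki67, Gzmb, Il13, Ifng or Ccl5 UMI (1322 cells, 868 of them in library 2, median depth 1058). Penk was found in 3 of them (0.227%, 0.0468 to 0.662) and Calca in 1 (0.0756%, 0.00192 to 0.421). Ramp1 was found in 110 (8.32%, 6.89 to 9.94), close to its share of CD4+ Tconv cells, whose median depth was 1622. The Ramp1 share was 8.90% in library 1, 8.64% in library 2 and 8.33% in library 3, and libraries 4, 5 and 6 held 39, 21 and 14 naive-like cells with 1, 1 and 0 Ramp1+ cells. In libraries 1 and 2 the Ramp1 shares were close to those of all cells, given above. Those libraries held 236 and 868 of the naive-like cells, while most Penk+ and Calca+ cells lay in libraries 4, 5 and 6. For Penk and Calca, state and library were therefore not told apart. Of the 110 cells, 95 had 1 Ramp1 UMI and none had 5 or more. The lowest Ramp1 share by state was in cells with a Gzmb UMI, at 2.44% (1.90 to 3.08) with a median depth of 2356, and no class known to lack the gene was at hand to measure free RNA.

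Penk and Calca were high in CD4+ Tconv cells with UMIs of type 2 cytokines, and Ramp1 was so in library 4. Il13, which is part of this gate, was a partner by which the genes were chosen, so the values are a description. Il4, Il5 and Il13 are the cytokines of Th2 cells, Gata3 is the factor that specifies them, and Ccr8 encodes a chemokine receptor of Th2 and tumor Treg cells. Of 142 CD4+ Tconv cells with an Il4, Il5 or Il13 UMI, Penk was found in 16 (11.3%, 6.58 to 17.7), Calca in 18 (12.7%, 7.69 to 19.3) and Ramp1 in 29 (20.4%, 14.1 to 28.0). Of 318 CD4+ Tconv cells with Ifng, the cytokine of Th1 cells, and none of the 3, Penk was found in 4 (1.26%, 0.344 to 3.19), Calca in 1 (0.314%, 0.00796 to 1.74) and Ramp1 in 24 (7.55%, 4.90 to 11.0). The median depths were 3489.5 and 2076.5 UMIs. Drawn down to 1500 UMIs, the type 2 shares were 9.25%, 7.57% and 15.4%. In libraries 4, 5 and 6, which held 73, 45 and 20 of the 142 type 2 cells, Penk was found in 6 of 73, 8 of 45 and 2 of 20, against 1 of 100, 1 of 104 and 1 of 59 Ifng+ cells. Calca was found in 11, 6 and 1 of the same type 2 cells, against 0, 1 and 0. Ramp1 was found in 23, 4 and 2, against 2, 10 and 3. Its type 2 share without library 4 was 8.70%, below the 10.1% of Ifng+ cells, while the type 2 shares of Penk and Calca were then 14.5% and 10.1%, against 1.38% and 0.459%. The levels in the type 2 cells were 4.44 UMIs per 10000 for Penk (3.90 to 5.03), 1.14 for Calca (0.876 to 1.46) and 1.94 for Ramp1 (1.59 to 2.34).

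**Figure D3:**
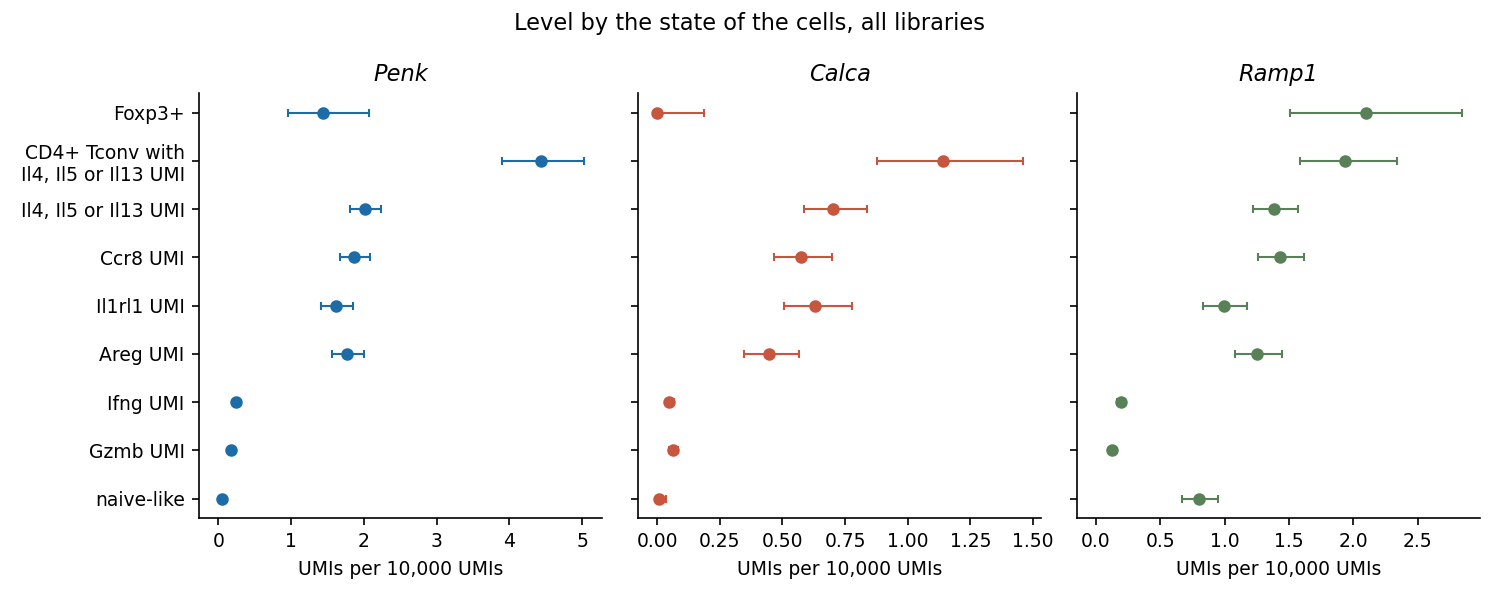
UMIs of the gene per 10000 UMIs (horizontal axis, a separate scale for each gene) in cells grouped by state (vertical axis) over all libraries, with exact 95% Poisson intervals and groups that share cells. Penk and Calca are highest in CD4+ Tconv cells with an Il4, Il5 or Il13 UMI (4.44 and 1.14) and lowest in naive-like or Foxp3+ cells. Ramp1 stays at 0.797 in naive-like cells. Il13 and Ccr8 were partners by which the genes were chosen.

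CD4+ Tconv cells with a Ccr8 UMI (117 cells) held Penk in 10 (8.55%), Calca in 10 (8.55%) and Ramp1 in 30 (25.6%, 18.0 to 34.5), against 1.93%, 1.75% and 6.07% of the 1088 cells without. Within library the UMI ratios were 5.17 (4.42 to 6.02) for Penk, 6.09 (4.39 to 8.23) for Calca and 3.85 (3.09 to 4.74) for Ramp1, and within library and depth 3.50, 6.23 and 3.13. Penk and Ramp1 were higher with Ccr8 in 4 libraries and lower in 2, and Calca was higher in 4 and had no UMI in the other 2. Without library 4 the ratios within library were 2.49, 1.56 and 1.79. These are values of the kind on which the genes were chosen.

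Co-detection was counted against the number expected if the genes were spread at random over cells of the same library and depth quartile. Penk and Ccr8 were found together in 32 cells against 8.52 expected (ratio 3.76, 2.57 to 5.30), with 5, 0, 4, 15, 4 and 4 cells in libraries 1 to 6. Calca and Ccr8 were together in 28 against 7.96 (3.52, 2.34 to 5.09), with 0, 0, 1, 18, 4 and 5. Ramp1 and Ccr8 were together in 101 against 41.8 (2.42, 1.97 to 2.94), with 24, 4, 16, 43, 5 and 9. Library 4 held the most such cells for each gene. Without it the ratios were 3.08, 2.53 and 1.82. Within CD4+ Tconv cells alone they were 1.80 (0.861 to 3.30), 2.10 (1.007 to 3.86) and 2.01 (1.36 to 2.87), so the Penk interval spanned 1.

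Il13 was also found with all 3 genes more often than expected, and it too was a partner by which the genes were chosen. Penk and Il13 were together in 21 cells against 4.18 expected (5.02, 3.11 to 7.67), 12 of them in library 4 and 9 in library 5. Calca and Il13 were together in 22 against 4.35 (5.06, 3.17 to 7.66), 14, 6 and 2 in libraries 4, 5 and 6. Ramp1 and Il13 were together in 64 against 10.8 (5.90, 4.55 to 7.54), 43 of them in library 4, and 32.8% of the 195 Il13+ cells held Ramp1. Without library 4 the ratios were 4.16, 4.57 and 4.68, and within CD4+ Tconv cells they were 2.20, 3.25 and 2.54.

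Il5 is the cytokine that drives eosinophils. Of the 116 Il5+ cells 24 held Calca (20.7%) and 58 held Ramp1 (50%), against 2.42 and 7.75 expected, ratios of 9.93 (6.36 to 14.8) and 7.49 (5.68 to 9.68). Penk was found in 10 of them against 2.28 (4.39, 2.11 to 8.08). Library 4 held 17 of the 24, 40 of the 58 and 8 of the 10, and without it the ratios were 7.70 for Calca, 4.41 for Ramp1 and 1.88 for Penk. Over all libraries the Ramp1 ratio was larger with Il5 than with Il13, and without library 4 it was the smaller. With Il10 the ratios were 3.55 for Penk (5 cells), 5.27 for Calca (7 cells) and 4.05 for Ramp1 (22 cells), and 1.40, 2.002 and 2.62 without library 4. Within CD4+ Tconv cells the Il5 ratios were 6.55 (3.38 to 11.4) for Calca, 3.47 (2.06 to 5.48) for Ramp1 and 1.23 (0.254 to 3.60) for Penk. The Il10 ratios there were 1.91 for Penk, 2.58 for Calca and 3.25 for Ramp1, and the Penk and Calca intervals spanned 1.

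**Figure D4:**
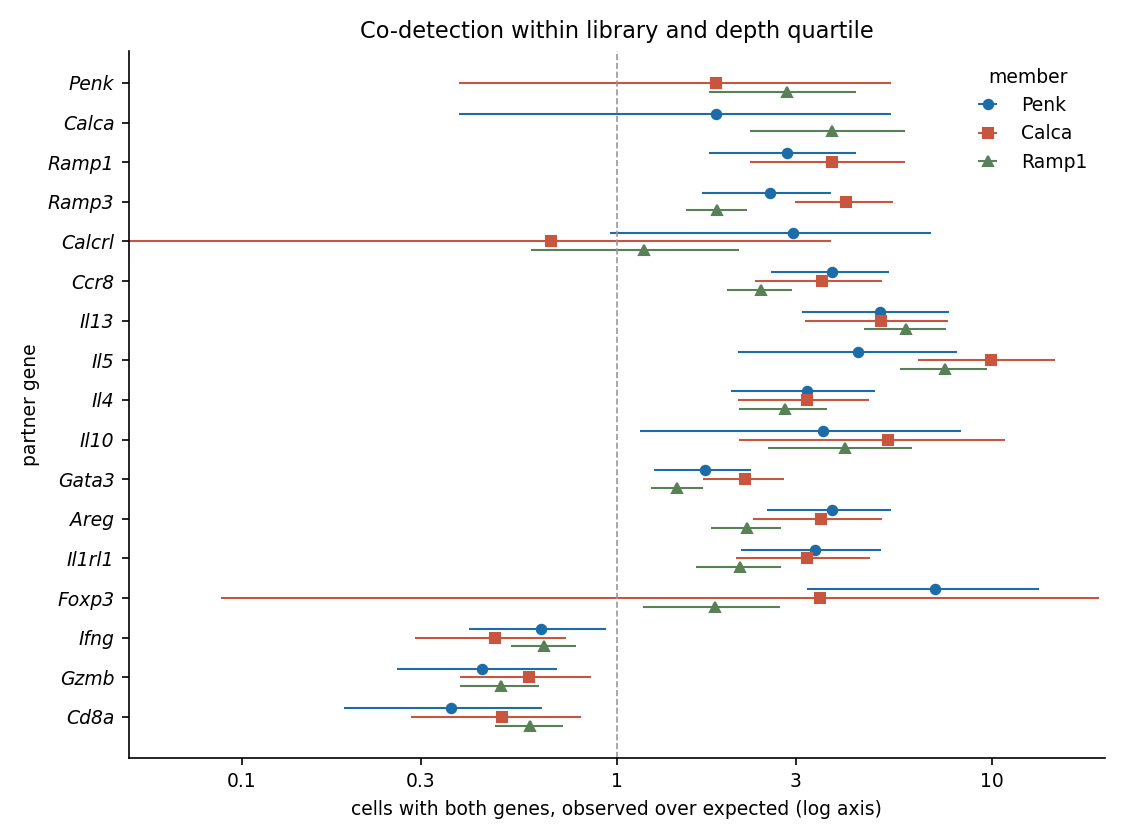
Observed over expected number of cells with both genes (horizontal log axis, 1 marked by the dashed line) for each partner gene (vertical axis), with exact 95% Poisson intervals of the observed count and an axis cut at 0.05. Over all T cells, each gene lies above 1 with Il13, Il5, Il4, Ccr8, Areg and Il1rl1 and below 1 with Ifng, Gzmb and Cd8a. Within CD4+ Tconv cells (not drawn), the Il4 and Il1rl1 intervals spanned 1 for each gene. Calca with Areg was there at 0.977 (0.317 to 2.28).

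Gzmb and Ifng were found with all 3 genes in fewer cells than expected over all T cells. With Gzmb, a granule protease, the ratios were 0.437 (0.259 to 0.691) for Penk, 0.584 (0.381 to 0.855) for Calca and 0.490 (0.381 to 0.620) for Ramp1. With Ifng they were 0.628, 0.473 and 0.641, and each interval lay under 1. Over the removal of each library the 6 ratios stayed between 0.316 and 0.808. Within CD4+ Tconv cells they were 0.732, 1.17 and 0.755 with Gzmb and 0.588, 0.444 and 0.797 with Ifng, and every interval spanned 1.

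The Treg genes were counted with each peptide gene. Penk and Foxp3 were together in 9 cells against 1.28 expected (7.04, 3.22 to 13.4), in libraries 1, 2 and 3 with 4, 2 and 3 cells, and the ratio was 11.6 without library 1. Penk and Ikzf2, which encodes the Treg factor Helios, were together in 34 against 15.4 (2.21). Calca and Foxp3 were together in 1 cell against 0.288 (0.0880 to 19.4 as a ratio, which overlaps that of Penk), and Calca and Ikzf2 in 10 against 13.7 (0.728, 0.349 to 1.34). Libraries 4, 5 and 6 held 33, 35 and 21 of the 101 Calca+ cells and 0, 0 and 1 of the 97 Foxp3+ cells, so at these counts the pair could hardly be tested.

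The 2 peptide genes were mostly in different cells. Penk and Calca were together in 3 cells, all in library 4, against 1.63 expected (1.84, 0.379 to 5.38), and in 0 CD4+ Tconv cells against 1.65. At these counts neither sharing nor avoidance was detectable. Penk and Ramp1 were together in 21 cells against 7.40 (2.84, 1.76 to 4.34), with 5, 1, 3, 9, 2 and 1 in libraries 1 to 6, each above its own expected number, but within CD4+ Tconv cells in 6 against 4.59 (1.31, 0.479 to 2.84). Calca and Ramp1 were together in 19 against 5.06 (3.76, 2.26 to 5.87), but 14 of the 19 were in library 4 and the ratio without it was 1.68. A single cell, also in library 4, held all 3 genes.

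The cells that carried Ramp1 with a peptide gene often held type 2 cytokines, nearly all of them in library 4. These cytokines include Il13, a partner by which the genes were chosen, so the shares are a description. Of the 18 cells with Calca and Ramp1 and no Penk, 15 had an Il4, Il5 or Il13 UMI (83.3%, 58.6 to 96.4), and of the 20 with Penk and Ramp1 and no Calca, 9 had (45%, 23.1 to 68.5). Without library 4 these were 2 of 5 and 1 of 12 cells. The shares were 30.6% of the 72 cells with Penk alone, 32.5% of the 80 with Calca alone and 10.7% of the 654 with Ramp1 alone, against 4.49% of all cells, and without library 4 they were 25.8%, 28.6% and 5.72%. The median depths of these sets ran from 1419.5 UMIs for Ramp1 alone to 4184.5 for Penk alone. Among the 22 cells with at least 5 Ramp1 UMIs, 14 had Il13, 13 had Ccr8 and 17 had Gata3, and their median depth was 5717.

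The highest cells of each gene differed in what else they held. The top Penk cell (75 UMIs, library 4, 5905 UMIs deep) was a CD4+ Tconv cell with 9 Ramp1, 5 Ccr8, 15 Il13 and 27 Il4 UMIs and no Calca. The second (48 UMIs, library 2) had 4 Ramp1 UMIs and no Ccr8, Il13, Il4 or Il5. The top Calca cell (21 UMIs, library 4) had 1 Ramp1, 2 Ccr8, 1 Il13 and 5 Il5 UMIs and no Penk. The top Ramp1 cell (12 UMIs, library 4) had 17 Il13 and 8 Il5 UMIs, and the second (9 UMIs, library 3) was Foxp3+ with 15 Ifng UMIs and no Il13.

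The genes whose pattern was most like each member were ranked by UMIs observed in the positive cells over those expected from the other cells of the same library and depth quartile. In Penk+ cells 112 of 2493 genes with enough UMIs were at least 2-fold higher (4.49%). The 10 with the largest ratio that were higher in each of the 4 libraries with at least 10 Penk+ cells were Cd81 (98 UMIs against 7.99 expected, 12.3-fold, 9.96 to 14.95), Ccdc184 (8.65), Dusp14 (7.14), Cd70 (7.07), Ebi3 (7.06), Nrgn (6.72), Cd200 (6.51), Cd74 (6.28), Il1r2 (5.73) and Cd83 (5.66). Cd81 encodes a tetraspanin, Ebi3 a subunit of the cytokines IL-27 and IL-35, Cd70 the ligand of CD27 and Il1r2 a decoy receptor for IL-1. Cd81 had a UMI in 37 of the 95 Penk+ cells. Of the 10, Cd83 moved most with 1 library and was 3.57-fold higher without library 5.

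In Calca+ cells 99 of 1982 genes were at least 2-fold higher (4.99%), and 34 of 1162 without library 4. The leading 10, by the same rule over 4 libraries, were Il5 (151 UMIs against 7.78, 19.4-fold, 16.4 to 22.8), Ramp3 (7.54), Areg (6.94), Socs2 (5.46), Ero1l (5.38), Igfbp7 (5.34), Dgat1 (5.29), Ccr8 (4.44), Ndrg1 (4.30) and Plin2 (4.20). Areg encodes the growth factor amphiregulin, Dgat1 the enzyme that completes triglycerides and Plin2 a coat protein of lipid droplets. Il5 had a UMI in 24 and Ramp3 in 46 of the 101 Calca+ cells. Without library 4 the ratios were 11.3 for Il5, 4.61 for Ramp3, 2.82 for Areg, 4.18 for Socs2, 1.58 for Ero1l, 4.10 for Igfbp7, 1.93 for Dgat1, 2.61 for Ccr8, 2.50 for Ndrg1 and 2.20 for Plin2.

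In Ramp1+ cells 158 of 6275 genes were at least 2-fold higher (2.52%), and 88 of 5473 without library 4. The leading 10, over 6 libraries, were Bex1 (77 UMIs against 5.06, 15.2-fold, 12.004 to 19.01), Igfbp7 (12.9), Ltb4r1 (8.58), Tmem176a (7.66), Tmem176b (5.99), Tox2 (5.32), Ckb (4.35), Areg (4.34), Smox (3.94) and Il1r2 (3.87). Ltb4r1 encodes the receptor of leukotriene B4, a lipid that draws leukocytes, and Tox2 a factor of helper T cells. Ltb4r1 had a UMI in 101 of the 693 Ramp1+ cells and Bex1 in 21. Without library 4 the ratios were 30.5 for Bex1, 8.33 for Igfbp7, 4.82 for Ltb4r1, 3.62 for Tox2, 1.95 for Areg and 1.60 for Il1r2. Without library 1 they were 4.81 for Tmem176a, 3.90 for Tmem176b and 2.76 for Ckb. Il5 (23.5-fold) and Il13 (18.3-fold) had larger ratios in Ramp1+ cells than Bex1 but were not higher in all 6 libraries.

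**Figure D5:**
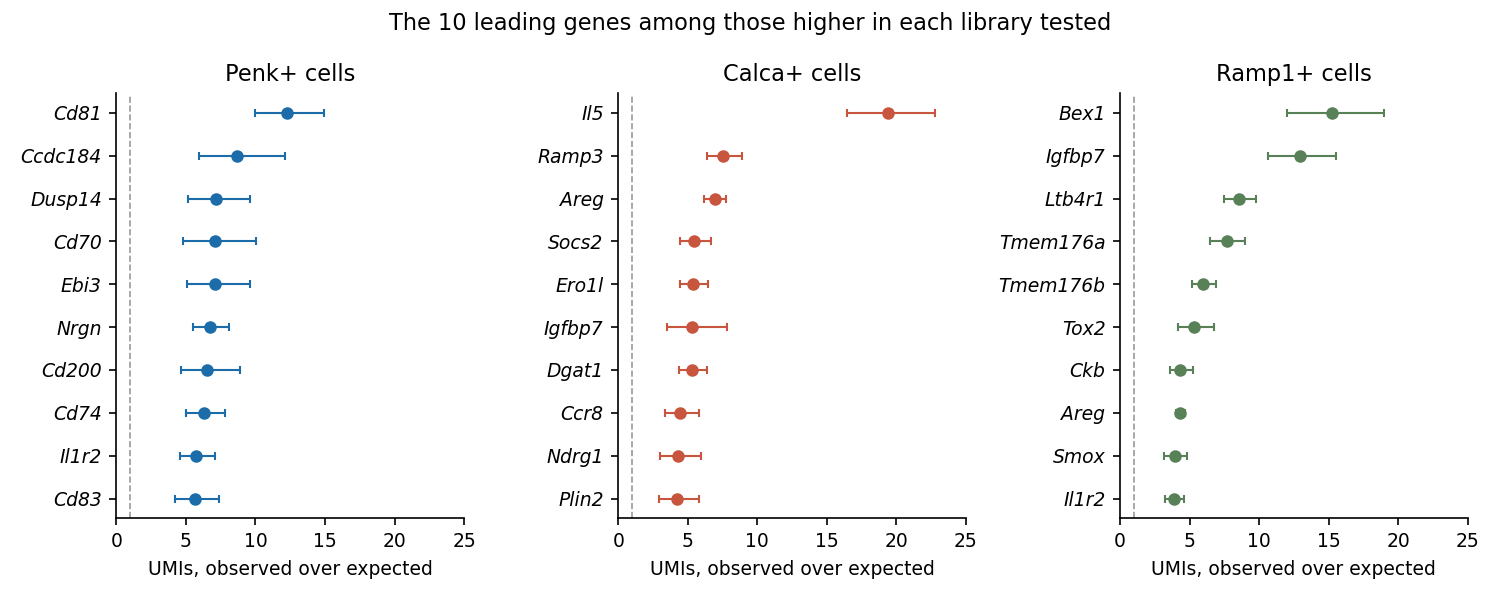
UMIs observed in the positive cells over UMIs expected from other cells of the same library and depth quartile (horizontal axis, 1 marked by the dashed line) for the 10 leading genes of each member among those higher in each library with at least 10 positive cells, with exact 95% Poisson intervals. Il5 leads in Calca+ cells (19.4), Bex1 in Ramp1+ cells (15.2) and Cd81 in Penk+ cells (12.3).

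At least 2-fold higher genes were shared in part. Penk and Calca shared 41 (36.6% of the Penk and 41.4% of the Calca genes), Penk and Ramp1 32 (28.6% and 20.3%) and Calca and Ramp1 33 (33.3% and 20.9%), and the sets share some of their cells. The 22 genes on all 3 lists included, as examples picked after their values were seen, Hdc, which encodes the enzyme that makes histamine (12.4-fold in Penk+, 11.0-fold in Calca+ and 10.0-fold in Ramp1+ cells), Areg (4.02, 6.94 and 4.34), Il1rl1, which encodes the IL-33 receptor (4.27, 4.75 and 3.83), and the chemokine gene Ccl1, whose product binds CCR8 (9.33, 2.27 and 3.14). Without library 4 Hdc stood at 11.4, 3.55 and 6.16, Areg at 4.40, 2.82 and 1.95, Il1rl1 at 2.77, 1.501 and 1.67 and Ccl1 at 8.88, 1.20 and 2.65.

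Among the type 2 and Treg partner genes, which earlier results had brought to notice, 11 of 20 with enough UMIs were at least 2-fold higher in Penk+ cells, 11 of 20 in Calca+ and 10 of 21 in Ramp1+ cells, beside 4.49%, 4.99% and 2.52% of all genes tested. Nothing is read from these counts, since the list holds Ccr8 and Il13, the partners by which the genes were chosen. Gata3 stood at 1.78-fold in Penk+, 2.82-fold in Calca+ and 1.80-fold in Ramp1+ cells. Within CD4+ Tconv cells its co-detection ratios were 1.15 (0.693 to 1.80) with Penk, 1.54 (0.965 to 2.33) with Calca and 0.924 (0.644 to 1.29) with Ramp1. Each of these intervals spanned 1. Csf2, which encodes the growth factor GM-CSF, was 5.44-fold (4.75 to 6.19) in Penk+ cells and 1.04-fold and 0.943-fold in Calca+ and Ramp1+ cells, from 228 UMIs in 18 Penk+ cells, and 2.73-fold in Penk+ cells without library 4. Counted over cells, Csf2 was found with Penk in 18 cells against 4.55 expected (3.96, 2.35 to 6.26), with Calca in 9 against 4.40 (2.04, 0.935 to 3.88) and with Ramp1 in 24 against 12.2 (1.96, 1.26 to 2.92). Cd40lg, the helper T cell signal to B cells and dendritic cells, was 0.771-fold (0.586 to 0.997), 2.16-fold and 1.57-fold. Over cells the ratios were 1.40 (0.984 to 1.93), 1.94 and 1.46, so the direction for Penk turned with the measure.

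Of the receptor side of CGRP, Ramp1 was detected in more cells than its partner Calcrl. Calcrl, the receptor core, had 149 UMIs in 140 of 12818 cells, in 1.83% of CD4+ Tconv, 0.778% of CD8+ and 3.09% of Foxp3+ cells. Its ratio of CD4+ Tconv to CD8+ T cells was 3.26 (2.09 to 4.85) within library, higher in 4 libraries and lower in 2. Ramp1 and Calcrl were together in 11 cells against 9.30 expected (1.18, 0.590 to 2.12), and Calca and Calcrl in 1 against 1.495. Ramp3 was more common, with 1666 UMIs in 1006 cells, in 15.7% of CD4+ Tconv, 3.31% of CD8+ and 11.3% of Foxp3+ cells. It was found with Calca in 46 cells against 11.2 (4.09, 2.99 to 5.45), with Penk in 27 against 10.6 (2.55) and with Ramp1 in 113 against 61.0 (1.85). Within CD4+ Tconv cells the ratios were 2.48 (1.42 to 4.03), 1.09 (0.437 to 2.24) and 1.24 (0.804 to 1.83). Ramp2 had 8 UMIs, and Crcp, which encodes a receptor component protein, had 524 in 496 cells. Of the other peptides of the family, Adm (adrenomedullin) had 5 UMIs.

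On the opioid side, the receptor gene Oprm1 had 8 UMIs in 8 cells, 0 of them Penk+ against 0.0472 expected, too few to read. Pomc, which encodes the precursor of endorphin and of melanocortins, had 260 UMIs in 242 cells, in 2.66% of CD4+ Tconv and 2.27% of CD8+ T cells. It was with Penk in 6 cells against 3.37 expected (1.78, 0.654 to 3.88). Ogfr, a receptor for Met-enkephalin unrelated to the classical ones, had 747 UMIs and was at 0.833-fold (0.416 to 1.49) in Penk+ cells.

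Of 14 enzymes that process peptide precursors, 10 had a row in the table, and those best known from neuroendocrine cells were at few UMIs. Pcsk1, a neuroendocrine convertase, had 15 UMIs in 11 cells and 1 of them was Penk+. Cpe, which trims the basic residues, had 11 UMIs and none was in a Penk+ or Calca+ cell, where 0.215 and 0.134 were expected. Pam, which amidates peptides such as CGRP, had 28 UMIs and none was in a Calca+ cell, where 0.273 were expected. At such expected values the zeros of Cpe and Pam show no absence. The broadly expressed convertase Furin had 1221 UMIs, with 1.04-fold in Penk+ (0.676 to 1.54), 1.95-fold in Calca+ (1.41 to 2.64) and 1.67-fold in Ramp1+ cells. Cpd, a carboxypeptidase of the secretory path, was 1.96-fold (0.940 to 3.60), 4.64-fold (2.70 to 7.43) and 2.96-fold, and 0.841-fold, 1.07-fold and 1.83-fold without library 4. The convertases Pcsk7 (402 UMIs) and Pcsk4 (115) and the protease gene Ctsl (179) were at 0.708-fold, 1.001-fold and 0 UMIs in Penk+, 1.02-fold, 0.731-fold and 1.81-fold in Calca+ and 1.05-fold, 1.05-fold and 2.02-fold (1.31 to 2.99 for Ctsl) in Ramp1+ cells. Of the peptidases Dpp3, Ece1 and Ide, 0 were at least 2-fold higher in any of the 3 sets by the same criteria.

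Other peptide genes were at the edge of detection. Nts had 4 UMIs, Grp 6, Npb 3 and Npw 1. Of the receptors for other transmitters, Vipr1 had 125 UMIs, Nmur1 39, Npy1r 5 and Vipr2 2.

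Genes of the cyclic AMP pathway, which CGRP receptors engage, were near the level of other cells in most cases. Of those with enough UMIs, 0 of 19 were at least 2-fold higher in Penk+, 3 of 18 in Calca+ and 0 of 20 in Ramp1+ cells, beside 4.49%, 4.99% and 2.52% of all genes tested. The log2 of the median ratio was -0.03, 0.18 and 0.10, beside median log2 ratios of 0.12, 0.04 and 0.04 over all genes tested. The 3 in Calca+ cells were the cyclic AMP-inducible repressor Crem (3.11, 2.45 to 3.90), Fosl2 (2.94, 2.33 to 3.66), an AP-1 subunit, and Nr4a3 (2.24, 1.68 to 2.93), an activation-induced nuclear receptor, and without library 4 they stood at 2.06, 2.48 and 1.83. In Penk+ cells 3 of the genes had an upper bound under 1. The phosphodiesterases Pde3b and Pde7a stood at 0.235-fold and 0.205-fold (upper bounds 0.512 and 0.477) and the kinase gene Prkacb at 0.494-fold (0.884). The phosphodiesterases Pde4b and Pde4d stood at 0.731-fold and 0.892-fold, and their intervals spanned 1.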

How the data were processed

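The deposited table holds UMI counts, whole numbers for each gene in each cell, which the authors made with Cell Ranger and filtered with Seurat. The authors' methods name mm10 as the genome and their processing notes name mm9, and the annotation used for counting is not given in the sources used here. The counts carry no coordinates, so gene positions and sequences are those of GRCm38 annotation matched by symbol. Total UMIs per library ran from 1916305 to 5127776. Cells held 201 to 2494 genes and at most 4.94% mitochondrial UMIs. Between libraries 76 barcodes were shared, by 152 cells, of which 2 were Penk+, 2 Calca+ and 8 Ramp1+. Summed libraries differed beyond sampling noise, with chi-square over its degrees of freedom at 2.90 or more.

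The members and lists were chosen with earlier results of these data known, and the naive-like gate was set after the table was read. No doublet caller was run. Some genes of the lists are not reported here. No p-value was computed, because no cell could be assigned to a treatment and cells are not replicates. Positive cells held at least 1 UMI of a gene. Expected values were taken within library and depth quartile, and intervals treat expected values as exact. Genes needed 20 UMIs and 10 cells with a UMI in the positive cells, a ratio of 2 and a lower bound over 1 to be counted as higher. The genes named are the members, Ccr8 and Il13, peptide and receptor genes with any UMI, processing enzymes and peptidases with at least 100 UMIs, and the 10 leading genes of each member that were higher in every library with at least 10 positive cells. The rule also allowed every other list gene with at least 100 UMIs, but in the cyclic AMP and type 2 lists most are given only in counts, and those named, like others outside the rule, were picked after their values were seen. The by-cell ratios and the values without a library for single states, pairs and genes were added after the data were seen. Shares drawn down to 500 or 1500 UMIs are exact averages over all draws. Python 3.11.15, numpy 2.4.6 and scipy 1.17.1 were used, and the ratio was tested on simulated data.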

Additional observations from a re-analysis of the deposited data

How the results depend on the processing

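Over 18 results and 189 alternatives, 146 values moved by less than the spread used to judge them and 43 moved further. No value whose own interval lay on 1 side of no difference turned, but Penk with Calca, whose interval spanned 1, went from above 1 to 0 without library 4 and within CD4+ Tconv cells. Leaving out 1 library gave ratios of CD4+ Tconv to CD8+ T cells from 25.1 to 55.5 for Penk, 3.98 to 12.7 for Calca and 3.05 to 7.61 for Ramp1. It gave co-detection ratios from 0 to 2.70 for Penk with Calca and 1.68 to 4.62 for Calca with Ramp1. For Ramp1 with Ccr8 they ran from 1.82 to 2.92. Gene counts ran from 34 of 1162 tested to 111 of 1395 for Calca and from 88 of 5473 to 170 of 5911 for Ramp1. Library 4 gave the lowest of each of these ranges. The shares of CD4+ Tconv cells were 1.31%, 0.792% and 2.80% for Penk, Calca and Ramp1 at 500 UMIs a cell, where fewer UMIs are drawn. The Penk ratio was 39.95 within library and depth. Over cells in place of UMIs the ratios were 7.53, 5.78 and 2.82, and with at least 2 Cd4 UMIs they were 6.69 for Calca and 9.59 for Ramp1. Within CD4+ Tconv cells the co-detection ratios were 0 for Penk with Calca, 1.31 for Penk with Ramp1, 1.80 for Penk with Ccr8, 2.20 for Penk with Il13, 2.10 for Calca with Ccr8 and 2.54 for Ramp1 with Il13. Without matching on depth they were 4.81 for Penk with Ramp1, 6.16 for Penk with Ccr8, 9.66 for Penk with Il13, 3.41 for Ramp1 with Ccr8 and 8.69 for Ramp1 with Il13. Genes at least 2-fold higher for Penk, Calca and Ramp1 numbered 528 of 14543, 405 of 14497 and 636 of 14536 tested with no minimum of UMIs. Within CD4+ Tconv cells, where fewer cells are compared, they numbered 48 of 1065, 41 of 773 and 66 of 2049. Of these, 28, 27 and 35 were also on the main lists of 112, 99 and 158 genes. Over cells in place of UMIs they numbered 63 of 2047, 51 of 1606 and 101 of 6079. Without matching on depth the count for Penk was 177 of 2493. Where no construction is named, the cause was not tested.

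Depth limits the rare pairs: 3 cells with Penk and Calca and 97 Foxp3+ cells leave wide intervals. The by-cell alternatives were chosen after seeing the data. No paired analysis was possible because the replicate numbers of the labels are not carried by the barcodes. The planned comparison of PBS with DTx was not run for the same reason.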
